A study of Homo sapiens with 12 samples.

Results

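Olfactory receptor genes were followed as a set of genes with little or no signal in bone tumour cells. The set held the probe sets whose only gene symbol begins with OR1, OR2, OR4, OR5 or OR10 followed by a single letter and a number, with symbols ending in P left out and with no filter on dim probe sets. It came to 884 of 1411399 probe sets on the array and to 193 of the 19560 genes with at least 1 probe set of their own: 51 OR2 genes, 45 OR4 genes, 39 OR5 genes, 32 OR10 genes and 26 OR1 genes. A gene had 1 to 24 probe sets (median 4), and 244 further probe sets that carry a member symbol beside another symbol were left out. The cells were U2OS, a human osteosarcoma line, stably carrying K294A, a capping enzyme mutant without activity, and the labels name neither the promoter nor the number of clones. All 12 arrays measured RNA from a cytoplasmic extract depleted of ribosomal RNA. The 4 groups of 3 arrays were induced Xrn1 (doxycycline at 1 ug/ml for 24 h, RNA treated in vitro with Xrn1), induced untreated (the same induction, no Xrn1), uninduced Xrn1 (no doxycycline, Xrn1) and uninduced untreated (no doxycycline, no Xrn1). The comparisons ask how the signal of these genes moves with Xrn1 and with induction. The labels call the arrays biological replicates without naming separate cultures, so p-values measure only the spread between these samples, which may be technical, and 3 arrays a group limit the precision. For the values as deposited, limma took each gene's spread mostly from all genes together (183 prior against 8 residual degrees of freedom). The p-values and SE of these gene fits therefore reflect little of a gene's own scatter.

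Olfactory receptors are G protein-coupled receptors of the sensory neurons in the nose. Each neuron expresses a single receptor allele, signals through GNAL (the olfactory G protein), ADCY3 (adenylyl cyclase) and a cyclic nucleotide-gated channel, and keeps the other receptor genes silent. The genes lie in clusters on many chromosomes, and their coding sequence usually sits in a single exon. Xrn1 is an exonuclease that degrades RNA from a 5′ monophosphate end and leaves capped RNA intact, so it separates RNAs by the state of their 5′ end.

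The promoters of 4 receptor genes are shown because a single bright probe set in each of them had a higher signal on every Xrn1 array than on any untreated array of the same induction state; OR2J1 and OR2J3 are neighbours on chromosome 6. Each line gives 250 bases before to 50 bases after the gene's start, from RefSeq on GRCh38.p14, plus strand: OR4B1 chr11:48216560-48216859, OR2A14 chr7:144122926-144123225, OR2J1 chr6:29099240-29099539 and OR2J3 chr6:29107808-29108107. Capitals mark TATAAA, the TATA box letters, or TAATTA, a homeodomain core, on either strand.
OR4B1: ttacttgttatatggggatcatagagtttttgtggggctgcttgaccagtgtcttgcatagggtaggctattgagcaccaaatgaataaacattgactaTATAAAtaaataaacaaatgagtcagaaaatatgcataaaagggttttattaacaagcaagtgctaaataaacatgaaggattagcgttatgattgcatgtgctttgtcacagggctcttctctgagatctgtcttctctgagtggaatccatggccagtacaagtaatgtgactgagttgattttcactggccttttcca
OR2A14: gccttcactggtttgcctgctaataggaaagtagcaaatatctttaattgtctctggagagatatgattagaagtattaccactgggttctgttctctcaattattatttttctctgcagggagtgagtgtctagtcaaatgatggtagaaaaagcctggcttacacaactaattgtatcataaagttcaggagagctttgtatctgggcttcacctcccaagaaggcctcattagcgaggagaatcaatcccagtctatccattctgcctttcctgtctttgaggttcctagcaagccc
OR2J1: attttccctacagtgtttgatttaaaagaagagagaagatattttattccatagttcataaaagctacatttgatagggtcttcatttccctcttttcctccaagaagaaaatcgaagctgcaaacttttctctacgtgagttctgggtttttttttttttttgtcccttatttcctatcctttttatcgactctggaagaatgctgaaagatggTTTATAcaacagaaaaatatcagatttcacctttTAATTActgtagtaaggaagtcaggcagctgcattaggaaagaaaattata
OR2J3: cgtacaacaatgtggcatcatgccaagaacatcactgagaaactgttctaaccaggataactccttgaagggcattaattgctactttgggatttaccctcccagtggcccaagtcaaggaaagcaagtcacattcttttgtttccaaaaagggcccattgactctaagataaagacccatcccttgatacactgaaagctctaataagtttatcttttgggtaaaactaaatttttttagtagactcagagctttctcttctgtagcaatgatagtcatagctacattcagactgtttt
OR4B1 held TATAAA, OR2J1 held both motifs, and neither OR2A14 nor OR2J3 held any match. Of the 193 genes, 147 matched a RefSeq promoter, with 152 promoters in all. Their median GC content was 37.0%, against 58.7% over all 35116 promoters of the table. TATAAA stood in 34.2% of the receptor promoters and in 11.5% of all promoters. TAATTA stood in 23.7% of the receptor promoters and in 4.84% of all promoters. The palindromic motif of the Ebf factors stood in 0.658% of the receptor promoters and in 1.21% of all promoters. In OR4B1 the last 50 bases begin with a start codon, so its annotated start may be the coding start. Promoter here thus means the window at the annotated start, which need not be where transcription begins. How many of the 152 are of this kind was not counted, so the shares may not compare like with like. These matches describe letters in a window and were not tied to the array values.

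The array values were log2 signals that the authors had normalised with RMA, which gives every array the same distribution over its probes, so that each change is relative to the rest of the array. The medians of all 19560 genes lay between 2.68 and 3.17 on the 12 arrays. Along the probe set numbers, which follow the chromosomes in blocks, most arrays shifted at a step. It was located on 1365901 probe sets outside the receptor set and fell after number 3122285. Taken alone, 8 of 12 arrays placed their largest break within 1000 of it, and uninduced untreated replicate 1 placed its own after 3771570. The search returns a single break for any data, so whether there were more was not tested. The 12 markers fixed for U2OS and mesenchymal cells, VIM, SPARC and ITGB1 among them, had mean levels of 2.97 to 8.36 (median 5.37), and 12 of 12 lay above the median gene. Of 11 measured markers of olfactory neurons, 5 lay below the median gene, and their median level was 2.87, beside 2.85 over all genes. Their levels ran from 1.23 for OMP, the marker protein of mature olfactory neurons, to 4.15 for ADCY3. RNGTT, the capping enzyme that K294A derives from, had 3.62 ± 0.61 in induced untreated cells and 3.42 ± 0.80 in uninduced untreated cells (SD, n = 3 each), a log2 change of 0.20 with limma adjusted p = 0.642. Whether its probe sets match the transgene is not known, so it checks no label.

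The receptor genes were among the dimmest on the array. Their mean levels over 12 arrays ran between 0.91 and 3.85 with a median of 1.78 and quartiles of 1.52 and 2.03, against a median of 2.85 over all genes. Of the 193 genes, 189 lay below the median gene, and the median receptor gene lay at percentile 7.44. Levels of different probe sets depend on probe affinity, so these ranks describe signal and not RNA abundance. The median spread within a group was 0.417 (SD) over the receptor genes and 0.361 over all genes.

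On single arrays the median of the 193 genes was 1.76, 1.80 and 1.74 in induced Xrn1, 1.78, 1.62 and 1.67 in induced untreated, 1.86, 1.57 and 1.76 in uninduced Xrn1, and 1.66, 2.08 and 1.66 in uninduced untreated. The 4 groups overlapped, and the array that stood highest was uninduced untreated replicate 2. The array medians of the 155 genes of other olfactory receptor families lay between 1.28 and 2.28, and the highest was on the same array.

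OR2W3, the receptor gene with the highest mean (3.85, 2 probe sets), is the neighbour of TRIM58 on chromosome 1. It had 4.25, 3.77 and 3.55 in induced Xrn1, 5.14, 4.13 and 3.86 in induced untreated, 3.85, 4.11 and 3.95 in uninduced Xrn1, and 3.54, 1.98 and 4.03 in uninduced untreated. Its groups overlapped in all 4 simple comparisons and none passed the test. OR2J3, the next at 3.73 (2 probe sets), encodes a receptor for the grassy odorant cis-3-hexen-1-ol. It had 4.19, 4.64 and 4.18 in induced Xrn1, 3.45, 3.36 and 3.78 in induced untreated, 4.00, 4.00 and 4.78 in uninduced Xrn1, and 2.72, 2.34 and 3.27 in uninduced untreated. Every Xrn1 array of OR2J3 lay above every untreated array. The 4 genes after them, OR2T8, OR2Y1, OR2J1 and OR2A14, had mean levels of 2.73 to 2.94, near the median gene. At the median of the set, OR10A4 on chromosome 11 ranged from 0.95 to 2.27 over the 12 arrays and OR2M3 on chromosome 1 from 0.97 to 2.94.

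The step divided the receptor genes by where they lie. Of the 193 genes, 64 had all their numbered probe sets below it: 44 OR2 genes on chromosomes 1, 5, 6 and 7, 10 OR10 genes on chromosomes 1 and 6, 9 OR5 genes on chromosome 3 and 1 OR1 gene on chromosome 1. Above it lay 127 genes: 44 OR4, 30 OR5, 25 OR1, 22 OR10 and 6 OR2 genes. OR4F21 had probe sets on both sides, and 1 gene had probe sets with numbers from 4000000 on, a separate run, and no others. Of the 884 probe sets, 296 lay below the step, 555 above it and 33 in the separate run.

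**Figure D1:**
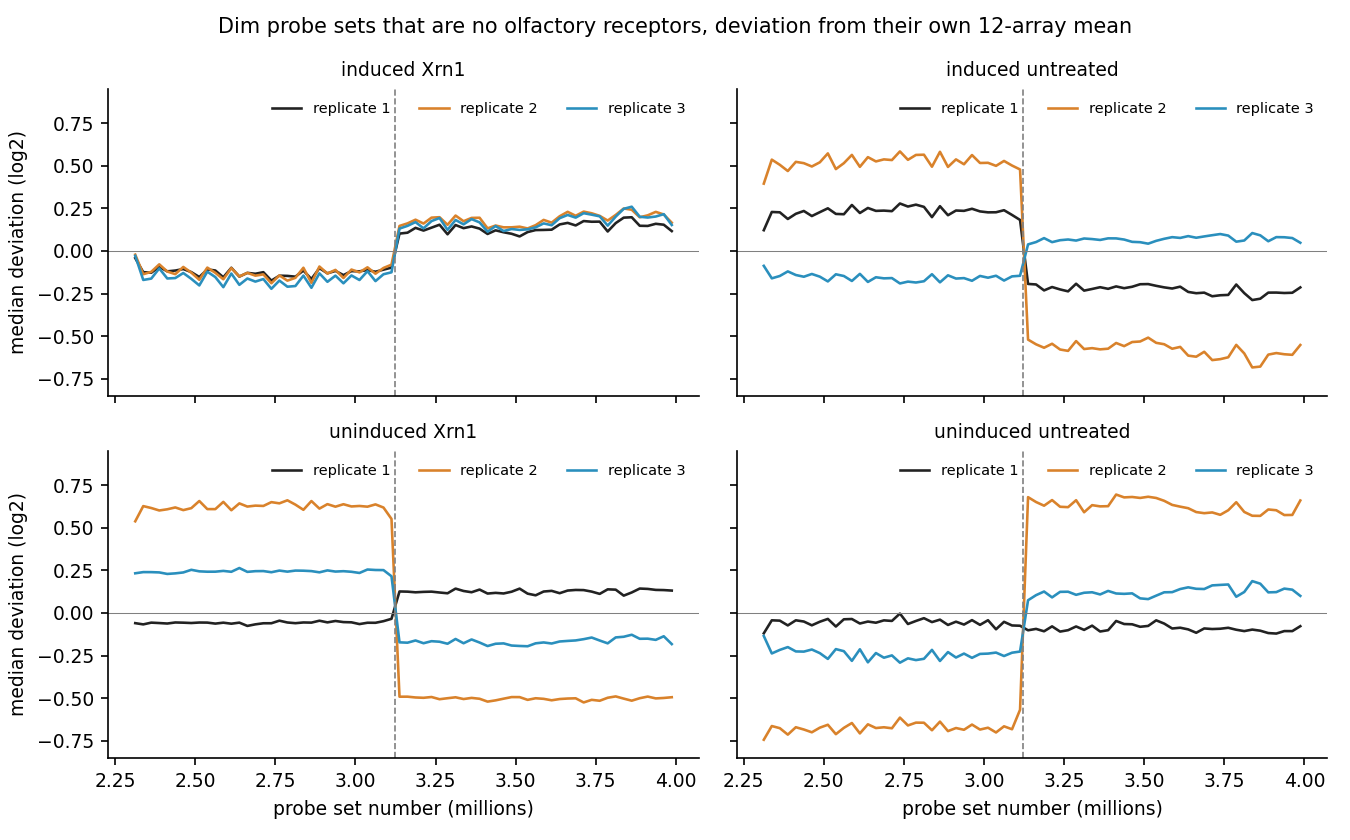
Median deviation of dim probe sets outside the olfactory receptors from their own 12-array mean (log2, vertical axis) along the probe set number (horizontal axis), 1 panel a group and 1 line an array; the dashed line is the step after number 3122285. Uninduced Xrn1 replicate 2 and induced untreated replicate 2 run high before the step and low after it, uninduced untreated replicate 2 the other way round, and each line is nearly flat on either side.

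Each array's probe sets below the step were set against those above it, as the median deviation from the probe sets' own 12-array means. For the receptor probe sets this below-minus-above difference was -0.24, -0.24 and -0.20 in induced Xrn1, 0.50, 0.95 and -0.24 in induced untreated, -0.26, 1.15 and 0.45 in uninduced Xrn1, and -0.05, -1.38 and -0.35 in uninduced untreated. Over all other probe sets it was -0.25, -0.30 and -0.33 in induced Xrn1, 0.45, 1.08 and -0.19 in induced untreated, -0.18, 1.07 and 0.35 in uninduced Xrn1, and 0.04, -1.28 and -0.33 in uninduced untreated. Across the step the receptors and the rest of the array thus shifted by similar amounts on each array. The sign was not the same on all arrays of a group except in induced Xrn1 and, for the receptors, uninduced untreated. The separate run differed. Its 33 receptor probe sets had a median deviation of 0.88 on uninduced Xrn1 replicate 2 and -0.96 on uninduced untreated replicate 2. Its other probe sets had -0.40 and 0.43 there. Among brighter probe sets (mean of 5 or more) the difference on the 3 arrays that stood out was smaller, with 0.38 on induced untreated replicate 2, 0.36 on uninduced Xrn1 replicate 2 and -0.91 on uninduced untreated replicate 2. The origin of the step was not tested.

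At gene level the 64 genes below the step had medians of 1.79, 1.85 and 1.79 in induced Xrn1, 2.41, 2.61 and 1.85 in induced untreated, 1.96, 2.83 and 2.33 in uninduced Xrn1, and 1.95, 1.34 and 1.61 in uninduced untreated. The 127 genes above it had 1.74, 1.78 and 1.70 in induced Xrn1, 1.55, 1.31 and 1.66 in induced untreated, 1.84, 1.22 and 1.52 in uninduced Xrn1, and 1.55, 2.34 and 1.68 in uninduced untreated. The sides lay close together on the 3 induced Xrn1 arrays and on uninduced untreated replicate 3, and furthest apart on the replicates numbered 2 of the other groups. Of the 64 genes below, 28 had their highest value on uninduced Xrn1 replicate 2 and 36 their lowest on uninduced untreated replicate 2. Of the 127 genes above, 71 had their highest value on uninduced untreated replicate 2, while 42 had their lowest on induced untreated replicate 2 and 41 on uninduced Xrn1 replicate 2. The results below are therefore given by side, with values in which each array was centred within each side, and without uninduced Xrn1 replicate 2 and uninduced untreated replicate 2 (both from sample number 5).

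**Figure D2:**
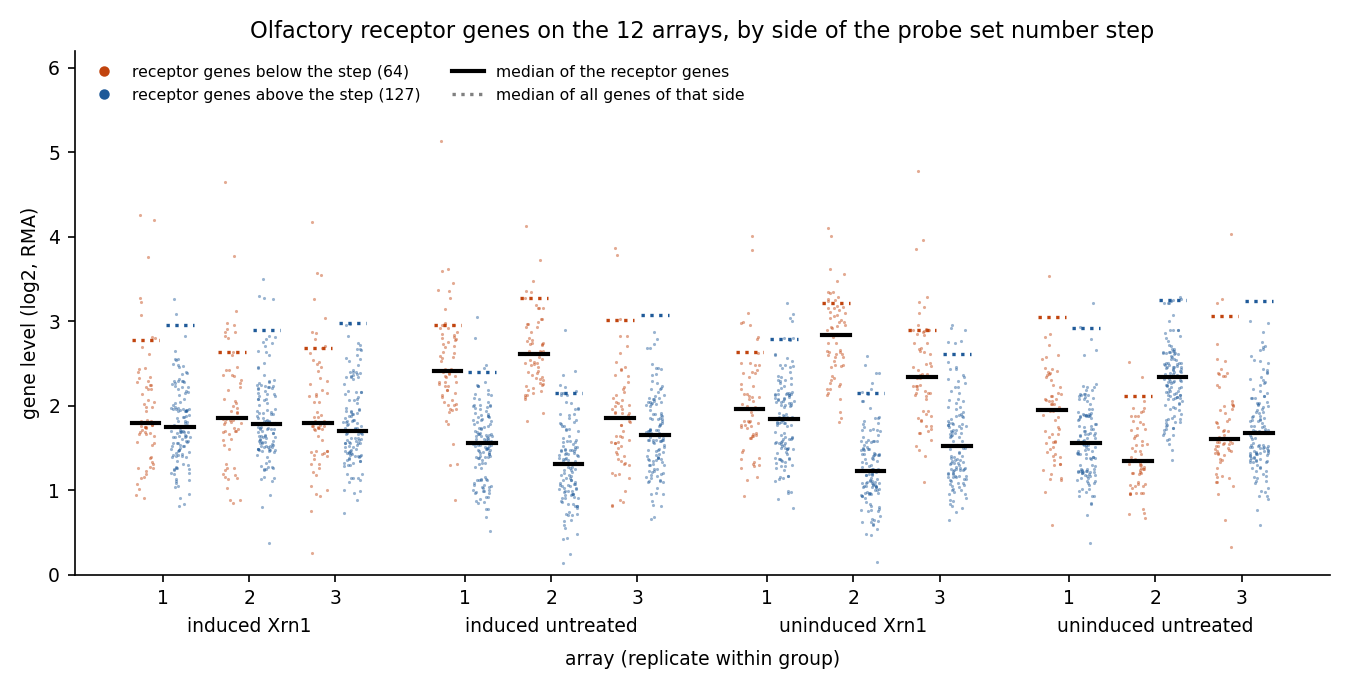
Level of each olfactory receptor gene (log2, vertical axis) on the 12 arrays, grouped by treatment (horizontal axis), with the 64 genes below the step in red and the 127 above it in blue; black bars are the medians of the receptor genes and dotted lines those of all genes of that side. The red and blue medians lie together on the induced Xrn1 arrays (1.79 and 1.74 on replicate 1) and far apart on uninduced Xrn1 replicate 2 (2.83 and 1.22).

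In uninduced cells, Xrn1 raised 32 receptor genes and lowered 7 of the 193 (limma, Benjamini-Hochberg adjusted p under 0.05 over all 19560 genes), with a median log2 change of -0.12. Over all genes, 6.45% were called higher and 27.8% lower, with a median of -0.29. With each array centred on its median gene the split was 52 higher and 2 lower, beside 17.8% and 22.2% of all genes, whose median was then -0.03. With cyclic loess it was 39 higher and 3 lower, beside 19.2% and 17.9% of all genes. The calls followed the step: 31 genes rose and 0 fell of the 64 below it (40 with unadjusted p under 0.05, median change 0.76), and 1 rose and 7 fell of the 127 above it (median -0.31). All genes below the step had a median of 0.32 with 15.7% higher and 15.2% lower, and all genes above it a median of -0.48 with 0.215% higher and 35.4% lower.

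The same families moved in opposite directions on the 2 sides. Of the OR5 genes, 4 of the 9 on chromosome 3 rose (median change 0.58), and 0 of the 30 above the step rose while 1 fell (median -0.29). Of the OR10 genes, 2 of 10 below rose (median 0.59), and 2 of 22 above fell (median -0.28). Of the OR2 genes, 24 of 44 below rose (median 0.78), and none of the 6 above was called (median -0.32). The other olfactory receptor families, outside the set, gave the same picture: 10 of 23 genes below rose (median 0.72) and 12 of 132 above fell (median -0.40).

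Among the genes below the step, OR2F2 on chromosome 7 had 2.23, 3.56 and 2.90 in uninduced Xrn1, against 1.31, 1.06 and 1.99 in uninduced untreated. The groups did not overlap, and the log2 change was 1.44 ± 0.32 (SE) with limma adjusted p = 0.0001. Group values did not overlap for 10.6% of all genes in the direction higher and for 31.0% in the direction lower. OR5H15 on chromosome 3 had 2.48, 3.47 and 2.12 in uninduced Xrn1 and 1.23, 1.04 and 1.55 in uninduced untreated, a change of 1.42 ± 0.33 (adjusted p = 0.000199). OR2B6 on chromosome 6 had 2.33, 3.13 and 2.89 in uninduced Xrn1 and 1.13, 1.93 and 1.66 in uninduced untreated, a change of 1.21 ± 0.32 (adjusted p = 0.00105). In all 3 genes uninduced Xrn1 replicate 2 was the highest of the 6 uninduced arrays. OR2J3, with the largest rise in the set, changed by 1.49 ± 0.32 (adjusted p = 4.29e-05), and its highest array was uninduced Xrn1 replicate 3.

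Among the genes above the step, OR4N2 on chromosome 14 had 0.79, 0.64 and 0.87 in uninduced Xrn1 and 1.38, 3.22 and 1.11 in uninduced untreated, a change of -1.13 ± 0.33 (adjusted p = 0.00328). Without uninduced untreated replicate 2, at 3.22, the change was -0.48 and no longer passed. OR4N4 on chromosome 15, with 24 probe sets, had 2.14, 1.48 and 1.86 in uninduced Xrn1 and 2.93, 3.07 and 2.87 in uninduced untreated, a change of -1.13 ± 0.31 (adjusted p = 0.00218). Its untreated arrays lay close together, and all of them lay above all Xrn1 arrays. OR4N4 belongs to a group of near-identical copies, so its signal may be shared with them. OR5L2 fell by 1.04 ± 0.32 (adjusted p = 0.00642) and OR10G7, a receptor for eugenol, fell by 0.80 ± 0.31 (adjusted p = 0.0371) on the log2 scale.

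When each array was centred within each side of the step, an alternative chosen after seeing the data, 13 of 192 receptor genes were called in uninduced cells, 11 higher and 2 lower, with medians of 0.20 below the step and 0.08 above it. Over all genes 4.96% were then higher and 34.0% lower, with a median of -0.15. These values leave out the probe sets numbered from 4000000 on, as do those with cyclic loess run within each side. The prior on the spread was also weaker, at 5.43 degrees of freedom, or 4.47 with that loess, against 8 residual. Calls in these fits rest more on each gene's own scatter, so a lost call need not come from the centring alone. OR2J3 (0.94, adjusted p = 0.0214), OR2F2 (0.90, adjusted p = 0.0203) and OR4N4 (-0.74, adjusted p = 0.00314) still passed. OR5H15 (0.87, adjusted p = 0.107), OR2B6 (0.67, adjusted p = 0.148), OR4N2 (-0.74, adjusted p = 0.0841), OR5L2 (-0.65, adjusted p = 0.122) and OR10G7 (-0.41, adjusted p = 0.124) did not. Without the 2 arrays of sample number 5, limma called 10 receptor genes, 9 higher and 1 lower, beside 0.9% and 28.1% of all genes, with medians of 0.38 below the step and 0.02 above it. With cyclic loess run within each side, 21 of 191 were higher and 3 lower, beside 25.6% and 25.2% of all genes. There OR4N2 passed (-0.76, adjusted p = 0.0352), as did OR2J3, OR2F2 and OR4N4.

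In induced cells, Xrn1 raised 11 receptor genes and lowered 10 of the 193, with a median change of 0.09; over all genes 12.9% were higher and 14.5% lower, with a median of 0.05. The sides were again opposed, and in the other direction than in uninduced cells. Below the step 1 gene rose and 9 fell of 64 (median -0.38), against 0.472% higher and 23.3% lower over all genes below it (median -0.36). Above the step 10 rose and 0 fell of 127 (22 with unadjusted p under 0.05, median 0.33), against 22.3% higher and 7.22% lower over all genes above it (median 0.42).

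OR1L6 on chromosome 9 had 1.80, 1.96 and 2.07 in induced Xrn1 and 1.02, 0.55 and 1.23 in induced untreated, a change of 1.01 ± 0.32 (limma adjusted p = 0.0106). OR10G7 had 2.29, 2.14 and 2.06 in induced Xrn1 and 0.99, 0.90 and 1.63 in induced untreated, a change of 0.99 ± 0.31 (adjusted p = 0.0116). OR1A1 on chromosome 17, a receptor for citrus and mint odorants, had 1.95, 1.81 and 1.70 in induced Xrn1 and 0.98, 1.07 and 0.66 in induced untreated, a change of 0.92 ± 0.32 (adjusted p = 0.0221). These 3 genes and OR2S2, which rose by 0.91 ± 0.32 (adjusted p = 0.0224), lie above the step, and in each the Xrn1 arrays were close to each other and above all untreated arrays. Such a separation held for 24.7% of all genes in the direction higher and for 21.6% in the direction lower.

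Among the genes that fell, OR5H1 on chromosome 3 had 1.27, 2.19 and 0.25 in induced Xrn1 and 3.27, 2.50 and 2.22 in induced untreated, a change of -1.43 ± 0.33 (adjusted p = 0.000496). It has a single probe set and widely spread Xrn1 arrays, and without induced Xrn1 replicate 3 its change was -0.94 and no longer passed. OR2T29 on chromosome 1 had 1.67, 1.18 and 0.96 in induced Xrn1 and 2.59, 2.12 and 1.77 in induced untreated, a change of -0.89 ± 0.32 (adjusted p = 0.0271). OR5K1, a receptor for pyrazines, had 1.14, 1.19 and 0.93 in induced Xrn1 and 2.18, 2.46 and 1.20 in induced untreated, a change of -0.86 ± 0.32 (adjusted p = 0.033). OR4F21, whose 6 probe sets lie on both sides of the step, fell by 0.89 ± 0.32 on the log2 scale (adjusted p = 0.0264). Without induced untreated replicate 2 its change was -0.55, and it passed in no fit that left out that array or any 1 of the 3 induced Xrn1 arrays.

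With each array centred within each side, 15 of 192 receptor genes were called in induced cells, 2 higher and 13 lower, with medians of -0.11 below the step and -0.14 above it; over all genes 8.29% were higher and 21.3% lower. The 4 genes above the step that were named as risen no longer passed with this centring: OR1L6 had 0.55 (adjusted p = 0.0531), OR10G7 0.53 (adjusted p = 0.0601), OR1A1 0.45 (adjusted p = 0.266) and OR2S2 0.44 (adjusted p = 0.148). Of the genes that had fallen, OR4F21 passed (-0.99, adjusted p = 0.0276), while OR5H1 (-1.16, adjusted p = 0.109), OR2T29 (-0.24, adjusted p = 0.626) and OR5K1 (-0.59, adjusted p = 0.172) did not. The value of OR2T29 also lost its probe sets of the separate run, so its shift is not that of the centring alone. With cyclic loess run within each side, 13 of 191 were higher and 9 lower, beside 19.8% and 22.6% of all genes. There OR1L6 (0.81, adjusted p = 0.00493), OR10G7 (0.71, adjusted p = 0.0135) and OR1A1 (0.67, adjusted p = 0.0492) passed again, so their calls depend on how the sides were treated. Without induced untreated replicate 2 the count of called receptor genes was 3, and without induced untreated replicate 3 it was 34. Both counts stand without the share of all genes in the same fit and show only dependence on single arrays.

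**Figure D3:**
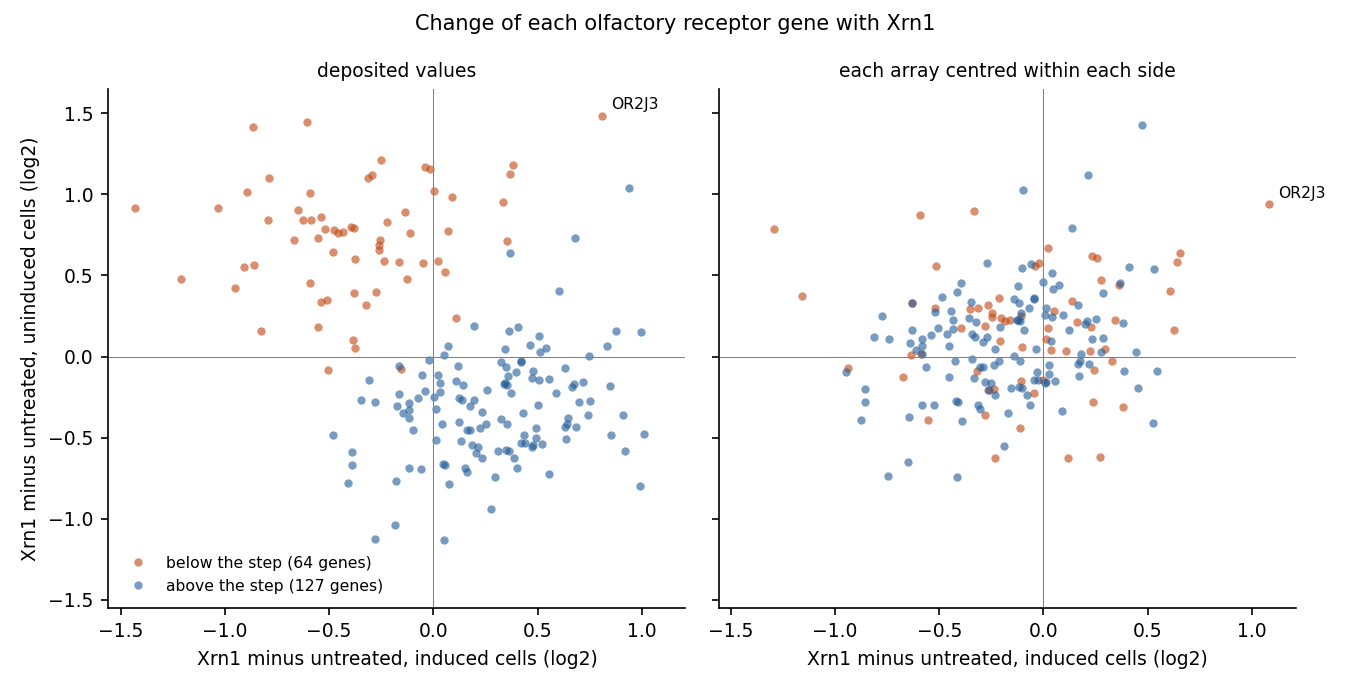
Log2 change with Xrn1 of each olfactory receptor gene in induced cells (horizontal axis) and in uninduced cells (vertical axis), as deposited (left) and with each array centred within each side of the step (right); red, 64 genes below the step; blue, 127 above it. In the deposited values the red genes lie mostly at upper left (medians -0.38 and 0.76) and the blue genes mostly at lower right (medians 0.33 and -0.31), and after centring within sides both lie around 0, with OR2J3 high on both axes.

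The Xrn1 changes in induced and uninduced cells come from different arrays. As deposited, 7 receptor genes were called in both, of 21 called in induced and 39 in uninduced cells: OR2J3 and OR1N1 were higher in both, a share of 9.52% of the induced and 5.13% of the uninduced calls, beside 39.3% and 31.3% of those of all genes, and the other 5 (OR10G7, OR2T29, OR2T5, OR5H1 and OR5H15) were called in opposite directions. OR2J3 had a change of 0.81 ± 0.32 in induced cells (limma adjusted p = 0.0431). Centred within sides, 3 genes were called in both and 0 in opposite directions. OR2J3 (1.08 in induced cells, adjusted p = 0.0154) and OR2B11 were higher in both and OR4N4 was lower in both (-0.74, adjusted p = 0.00573, in induced cells). These were 3 of 15 induced and 3 of 13 uninduced calls, while over all genes 74.4% of the induced and 56.5% of the uninduced calls were shared in the same direction. With cyclic loess within sides, 8 were called in both, 7 higher (OR1P1, OR2A14, OR2B11, OR2G2, OR2J1, OR2J3 and OR2Y1) and 1 lower (OR4N4), or 36.4% of the induced and 33.3% of the uninduced calls, beside 81.8% and 68.3% of those of all genes. These members were singled out after their values were seen.

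The difference of the Xrn1 changes, induced minus uninduced, was tested as an interaction contrast in limma. It called 39 receptor genes, 9 higher and 30 lower, with a median of 0.26, and over all genes 20.2% higher and 3.89% lower (median 0.62). Centred on the median gene the split was 2 higher and 37 lower, beside 6.19% and 7.76% of all genes, and with cyclic loess 1 higher and 10 lower, beside 0.496% and 1.34%. Below the step 29 of 64 genes were lower and 0 higher (median -1.04), and above it 9 of 127 were higher and 0 lower (median 0.61). Over all genes, 0.115% were higher and 9.6% lower below the step (median -0.53), and 34.8% were higher and 0.00933% lower above it (median 0.99). OR5H1 had the largest difference at -2.35 ± 0.47 (adjusted p = 0.000728), and OR10G7 the largest in the other direction at 1.79 ± 0.44 (adjusted p = 0.00695). With each array centred within each side, limma called 0 of 192 receptor genes (22 with unadjusted p under 0.05) and 3 of all 19146 genes (0.0157%). Without the 2 arrays of sample number 5 it called 0 of 193 (33 with unadjusted p under 0.05) and 1 of all genes (0.00511%).

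**Figure D4:**
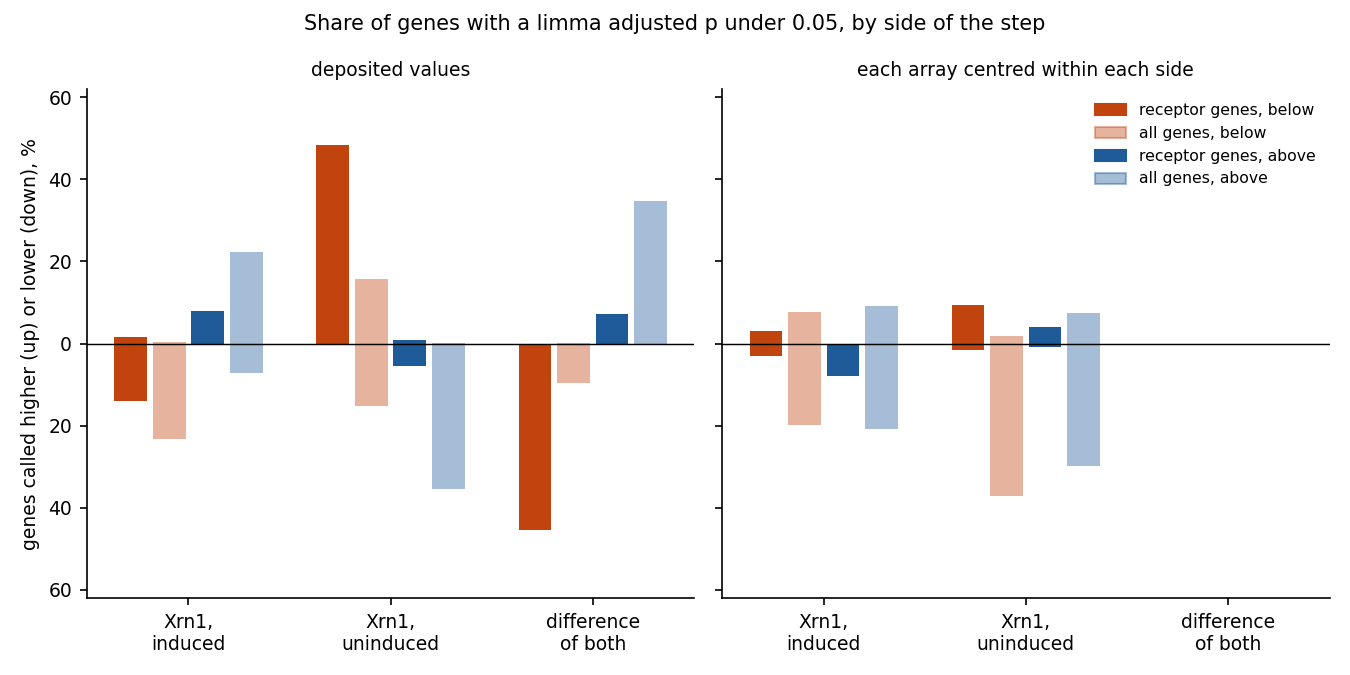
Share of genes called higher (upward bars) or lower (downward bars) in percent (vertical axis), for Xrn1 in induced cells, Xrn1 in uninduced cells and the difference of both (horizontal axis), as deposited (left) and with each array centred within each side of the step (right); dark bars are receptor genes, pale bars all genes, red below and blue above the step. As deposited the red and blue bars point opposite ways for the receptors (48.4% of those below higher with Xrn1 in uninduced cells), and after centring the difference of both has no visible bar.

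Few receptor genes were called for induction. Without Xrn1, induced against uninduced, 2 of 193 rose and 0 fell (median -0.15), beside 0.112% higher and 0.133% lower over all genes (median -0.34). OR5H1 had 3.27, 2.50 and 2.22 in induced untreated and 0.59, 1.64 and 0.33 in uninduced untreated, a change of 1.81 ± 0.33 (limma adjusted p = 0.000667). OR2T5 on chromosome 1, with 2 probe sets, had 2.71, 2.99 and 1.31 in induced untreated and 0.98, 0.97 and 1.17 in uninduced untreated, a change of 1.29 ± 0.33 (adjusted p = 0.0476). Both lie below the step, where the median change of the receptor genes was 0.66 and 0.281% of all genes were called higher and 0.0% lower. Above it the median was -0.39, and 0.0% of all genes were called higher and 0.205% lower. Centred within sides, limma called 0 of 192 genes (16 with unadjusted p under 0.05), with medians of 0.15 below and 0.10 above. Without induced untreated replicate 3, 50 receptor genes were called, and without uninduced untreated replicate 2 or without induced untreated replicate 1, none. The shares of all genes called in these fits are not given, so the counts show dependence on single arrays and nothing particular to the receptors.

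With Xrn1, limma called 0 of the 193 genes between induced and uninduced cells (26 with unadjusted p under 0.05), beside 0.092% higher and 0.0358% lower over all genes. The medians were -0.44 below the step and 0.24 above it, against -0.22 and 0.41 over all genes of each side. Centred within sides the count was again 0 (21 with unadjusted p under 0.05), with medians of -0.08 below and -0.13 above. No change of the receptor genes with induction was detectable that held under the centring within sides.

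A few receptor probe sets were bright, unlike the rest of their gene. Of the 884 probe sets, 16 in 15 genes had a mean above 4. This mean was over all 12 arrays, so a probe set could pass through its Xrn1 arrays alone. That of OR2G2 had group means of 3.60 (induced) and 2.52 (uninduced) untreated, and 6.15 and 5.35 with Xrn1. That of OR5P2 had 3.47 and 3.44 untreated, and 6.70 and 5.89 with Xrn1. The counts that follow for the 16 are therefore no independent support for a rise. As deposited, limma called 8 of the 16 higher and 0 lower with Xrn1 in uninduced cells, beside 13.0% higher and 24.0% lower over the 138866 such probe sets on the array. In induced cells it called 6 higher and 0 lower, beside 10.3% higher and 13.7% lower. Centred within sides, 6 were higher and 1 lower in uninduced cells (14.6% and 25.8% over all such probe sets) and 8 higher and 0 lower in induced cells (8.84% and 16.2%). Over all 884 receptor probe sets, 27 were called higher and 7 lower in uninduced cells, beside 3.22% and 5.15% of all probe sets, and 11 higher and 6 lower in induced cells, beside 2.07% and 2.31%. Centred within sides, 12 of 851 were higher and 5 lower in uninduced cells, beside 2.31% and 5.49%, and 12 higher and 12 lower in induced cells, beside 1.45% and 2.91%.

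Centred within sides, 7 receptor probe sets were higher with Xrn1 in both induced and uninduced cells. Those of OR5P2, OR2G2 and OR4S2 were singled out after their values were seen. The brightest, probe set 3330091 of OR4B1 (mean 6.69), is 1 of 6 of this gene, whose neighbour on chromosome 11 is PTPRJ, a receptor phosphatase. It had 8.32, 8.33 and 7.63 in induced Xrn1, against 4.51, 5.49 and 6.83 in induced untreated. In uninduced cells it had 8.18, 6.77 and 8.31 with Xrn1 and 4.84, 4.88 and 6.12 untreated. The Xrn1 arrays lay above the untreated arrays in both. The changes were 2.48 ± 0.58 in induced cells (limma adjusted p = 0.00963) and 2.47 ± 0.58 in uninduced cells (adjusted p = 0.00468), and they were 2.02 (adjusted p = 0.0232) and 2.86 (adjusted p = 0.000458) when centred within sides. The gene's 5 other probe sets had means of 0.95 to 1.53, and none was called.

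Probe set 3029528 of OR2A14 (mean 5.79) had 7.42, 7.60 and 7.08 in induced Xrn1 and 4.07, 3.93 and 5.55 in induced untreated. In uninduced cells it had 7.71, 7.37 and 6.85 with Xrn1 and 4.21, 2.96 and 4.68 untreated. It had the lowest adjusted p among the receptor probe sets named here, with changes of 2.85 ± 0.55 in induced cells (adjusted p = 0.00151) and 3.36 ± 0.55 in uninduced cells (adjusted p = 6.69e-05). Its 5 other probe sets had means of 1.90 to 2.35.

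OR5P3 and OR5P2 are adjacent genes on chromosome 11, and each has 1 such probe set. Probe set 3361505 of OR5P3 had 7.63, 7.69 and 5.74 in induced Xrn1 and 2.43, 3.48 and 5.57 in induced untreated, and 7.31, 6.26 and 6.29 in uninduced Xrn1 and 3.45, 4.15 and 5.17 in uninduced untreated. Probe set 3361496 of OR5P2 had 7.58, 7.25 and 5.27 in induced Xrn1 and 2.78, 3.12 and 4.51 in induced untreated, and 6.65, 4.85 and 6.16 in uninduced Xrn1 and 2.86, 2.91 and 4.55 in uninduced untreated. On both probe sets replicate 3 was the lowest of the induced Xrn1 arrays and the highest of each untreated group. OR5P3 changed by 3.19 ± 0.65 in induced cells (adjusted p = 0.00257) and 2.37 ± 0.65 in uninduced cells (adjusted p = 0.0166). OR5P2 changed by 3.23 ± 0.63 in induced cells (adjusted p = 0.0016) and 2.45 ± 0.63 in uninduced cells (adjusted p = 0.00978). Of the other probe sets, 1 of OR5P3 was also called in induced cells as deposited.

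On chromosome 6, probe set 2900754 of OR2J3 had 6.17, 6.84 and 6.02 in induced Xrn1 and 5.17, 3.66 and 4.95 in induced untreated, and 5.93, 5.74 and 6.44 in uninduced Xrn1 and 3.10, 3.74 and 4.14 in uninduced untreated. It changed by 2.38 ± 0.53 in uninduced cells (adjusted p = 0.00265) and by 1.75 ± 0.53 in induced cells, where it did not pass as deposited (adjusted p = 0.05004) and passed when centred within sides (2.02, adjusted p = 0.0224). Its neighbour OR2J1 had a bright probe set, 2900747 (mean 5.21), with 6.31, 6.98 and 6.12 in induced Xrn1 and 3.27, 5.06 and 5.84 in induced untreated. In uninduced cells that probe set had 5.99, 5.90 and 5.82 with Xrn1 and 4.00, 2.69 and 4.53 untreated. OR2J1 passed in uninduced cells as deposited (2.16 ± 0.58, adjusted p = 0.0149) and in induced cells when centred within sides (2.02, adjusted p = 0.0305).

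Probe set 2390140 of OR2G2 on chromosome 1 changed by 2.54 ± 0.56 in induced cells (adjusted p = 0.00523) and 2.83 ± 0.56 in uninduced cells (adjusted p = 0.000685). Probe set 3330709 of OR4S2 on chromosome 11 changed by 2.63 ± 0.59 in induced cells (adjusted p = 0.00623) and 2.15 ± 0.59 in uninduced cells (adjusted p = 0.0159). Both kept Xrn1 arrays above untreated arrays in each kind of cell. The 7 probe sets lie on both sides of the step, with 3 below it and 4 above. For OR4B1, OR2A14, OR2J3, OR5P2, OR2G2 and OR4S2 none of the gene's other probe sets was called as deposited in either kind of cell.

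Not every bright receptor probe set was higher with Xrn1. Probe set 2900835 of OR2H1 (mean 5.69) had 5.84, 5.44 and 5.08 in induced Xrn1 and 5.36, 6.60 and 6.39 in induced untreated, and 5.01, 5.49 and 4.40 in uninduced Xrn1 and 6.76, 5.83 and 6.11 in uninduced untreated. In uninduced cells its change was -1.27 ± 0.52 (adjusted p = 0.135) as deposited and -1.82 ± 0.47 (adjusted p = 0.0114) when centred within sides. Probe set 2439656 of OR10J3 (mean 5.20) had log2 changes of 0.31 ± 0.50 in induced cells (adjusted p = 0.791) and -0.15 ± 0.50 in uninduced cells (adjusted p = 0.897). Among dimmer probe sets of the set, OR4N4 had 1, number 3583397, that was lower with Xrn1 in both kinds of cell when centred within sides.

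**Figure D5:**
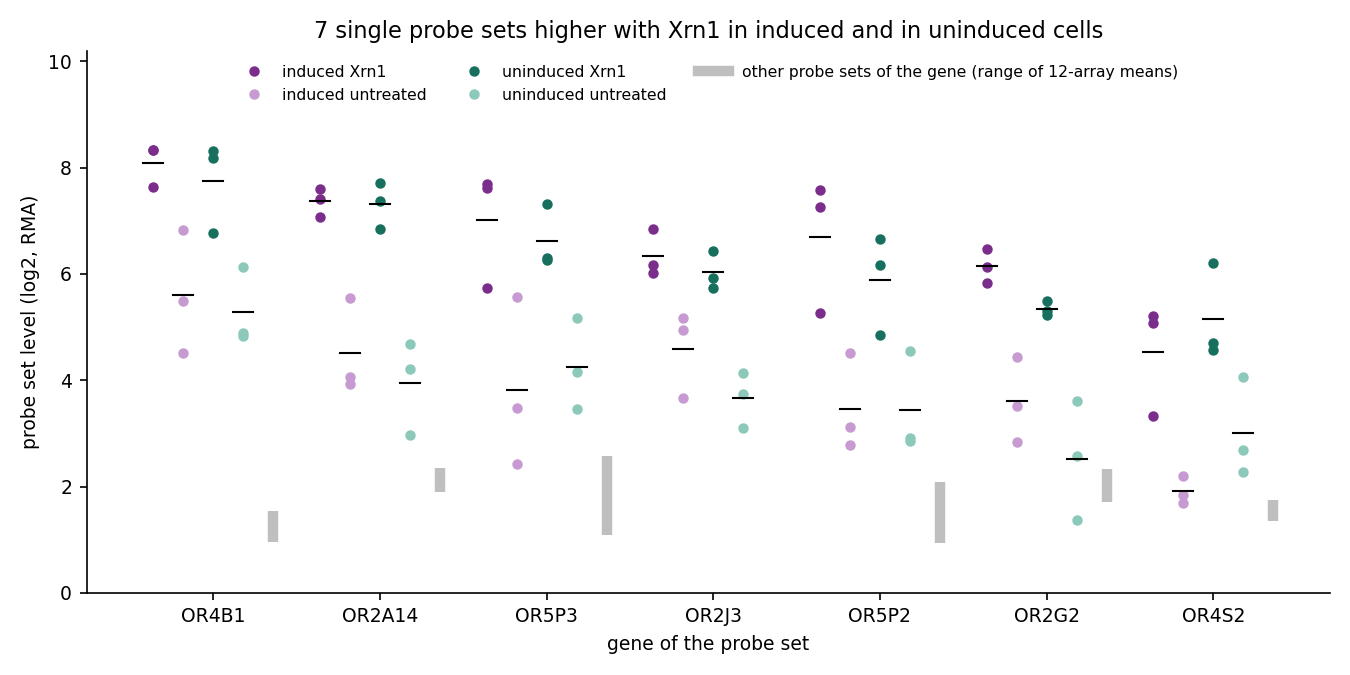
Signal (log2, vertical axis) of 7 single probe sets of olfactory receptor genes (horizontal axis) on the 12 arrays; dark points are Xrn1 arrays, pale points untreated arrays, purple induced and green uninduced cells, black bars group means, and grey bars the range of 12-array means of the same gene's other probe sets (OR2J3 has a single other probe set and no visible bar). In each gene the dark points lie above the pale points of the same cells, and the grey bars lie below 3.

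Of 23 measured genes of olfactory signalling and receptor export, 5 rose and 4 fell with Xrn1 in induced cells and 0 rose and 9 fell in uninduced cells, beside the 12.9% and 14.5%, and the 6.45% and 27.8%, of all genes. GNAL had a change of -0.94 (limma adjusted p = 0.013) in uninduced cells and 0.28 (adjusted p = 0.533) in induced cells. GNG13, a G protein subunit, rose by 1.21 (adjusted p = 0.00203) in induced cells, and ANO2, the calcium-gated chloride channel, fell by 2.09 (adjusted p = 7.72e-09) in uninduced cells on the log2 scale. CNGA2, a subunit of the cyclic nucleotide-gated channel, had changes of 0.42 (adjusted p = 0.32) in induced and -0.24 (adjusted p = 0.576) in uninduced cells. Of 14 regulators of receptor choice, 2 rose and 3 fell in induced cells and 1 rose and 4 fell in uninduced cells; LBR, a receptor of the nuclear envelope, fell by 2.08 (adjusted p = 6.24e-08) and 2.18 (adjusted p = 2.68e-09) on the log2 scale, while the median level of the list was 3.14. Induction called 0 genes of either list, with or without Xrn1.

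Of the 12 U2OS and mesenchymal markers, 0 rose and 4 fell with Xrn1 in induced cells (median change -0.45), and 1 rose and 8 fell in uninduced cells (median -1.28). Over all genes 12.9% rose and 14.5% fell in induced cells, and 6.45% and 27.8% in uninduced cells. Among the 6520 brightest genes it was 17.7% and 27.9% in induced cells, and 3.73% and 48.5% in uninduced cells. The shares over all genes also stand beside the counts of the other marker lists below. Their mean level over the list ranged from 4.79 to 5.30 on induced Xrn1 arrays, 5.43 to 5.80 on induced untreated arrays, 4.69 to 4.95 on uninduced Xrn1 arrays and 5.78 to 6.08 on uninduced untreated arrays. The Xrn1 and untreated ranges did not overlap in either kind of cell. In uninduced cells this held also for the signalling list (2.65 to 2.91 with Xrn1, 3.23 to 3.44 untreated) and the choice regulators (3.03 to 3.21, 3.70 to 3.89). It held there for the olfactory neuron markers too, but not for the markers of other cell types. In induced cells only the latter also stood apart, higher with Xrn1 (2.78 to 2.83, against 2.46 to 2.67 untreated). Of 12 markers of other cell types, 2 rose (GFAP and SYP) and 0 fell in induced cells and none was called in uninduced cells. The 11 olfactory neuron markers are all also in the signalling list and are thus no separate reading. They had 2 higher and 1 lower in induced cells and 0 higher and 3 lower in uninduced cells. Their mean level was 2.25 to 2.59 on uninduced Xrn1 arrays and 2.71 to 2.87 on uninduced untreated arrays. It was 2.75 to 2.82 on induced Xrn1 arrays and 2.34 to 2.78 on induced untreated arrays. Xrn1 acted in vitro on RNA already taken from the cells, so these changes are of RNA and not of cell numbers. Between induced and uninduced cells, fewer cells of a type and less RNA per cell cannot be told apart in such bulk samples.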

How the data were processed

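RNA of 12 arrays was measured on a whole-transcript exon array. The deposited values are log2 signals per probe set; per the submitters' processing notes they were made with RMA in oligo, and for the versions, the annotation of the probe sets and its build, the sources used here give nothing. Gene names came from GEO's platform annotation: 357604 probe sets had exactly 1 symbol, 15322 several and 1038473 none. A gene's value was the mean of its 1-symbol probe sets. A model with 4 group means was fitted to all 19560 genes, and a second to all 1411399 probe sets, with limma 3.58.1 in R 4.3.3 (lmFit and eBayes), and p-values were adjusted by the Benjamini-Hochberg method over each whole table at 0.05. The gene fits were also run on simulated data with independent noise and no step. That cannot show whether calls hold on arrays shifted by the step. The receptor genes, lists and tests were chosen with earlier results of these data known. Genes named were the 4 largest rises and falls per comparison among those called without overlap, the brightest, those at the median and the list genes with the smallest p; others were chosen after their values were seen, as were OR2B11, OR1N1, CNGA2 and GNAL. The title of 1 Xrn1 array repeats replicate number 2; it was numbered 1 from its sample number. Alternatives changed the gene summary, filters, normalisation, prior, arrays used and blocks. Centring and loess within the sides of the step, and leaving out 3 arrays, were chosen after seeing the data. As 147 of 193 genes matched a promoter, no check of GC content against change was made.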

Additional observations from a re-analysis of the deposited data

Results flagged for a closer look

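The Xrn1 changes of 39 receptor genes differed between induced and uninduced cells by the interaction contrast in limma (induced minus uninduced, log2, Benjamini-Hochberg adjusted p over all genes). Of the genes named, the difference was positive for OR10G7 (1.792, adjusted p = 0.00695), OR1A1 (1.5, adjusted p = 0.0201), OR1L6 (1.493, adjusted p = 0.0201), OR10W1 (1.333, adjusted p = 0.0283), OR2S2 (1.272, adjusted p = 0.0335) and OR4N2 (1.184, adjusted p = 0.0487), all above the step. It was negative for OR5H1 (-2.35, adjusted p = 0.000728), OR5H15 (-2.282, adjusted p = 0.000895), OR2F2 (-2.051, adjusted p = 0.00301), OR2T5 (-1.948, adjusted p = 0.00518) and OR2T29 (-1.911, adjusted p = 0.00507). It was also negative for OR2B6 (-1.466, adjusted p = 0.0215), OR5K1 (-1.424, adjusted p = 0.0238), OR2M3 (-1.42, adjusted p = 0.0263) and OR2W3 (-1.31, adjusted p = 0.0349), and these 9 genes lie below the step. OR4F21, with probe sets on both sides, had -1.154 (adjusted p = 0.048). With each array centred within each side of the step, 0 receptor genes were called for this difference.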

How the results depend on the processing

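The alternatives were run on 26 called changes of named genes, and none of these was reversed, while the median change over all receptor genes changed sign in every comparison under at least 1 alternative, values below. Where no share of all genes was given above, a count shows dependence on the setting and nothing particular to the receptors. For Xrn1 in uninduced cells (39 genes called, median change -0.12), the count was 14 when genes were summarised by medians, 14 with no prior on the spread, 10 without uninduced Xrn1 and uninduced untreated replicate 2, 14 also without induced untreated replicate 2, 13 centred within sides and 24 with loess within sides. The median was 0.17 with the filter on dim probe sets, 0.14 centred on the median gene, 0.085 with cyclic loess, 0.14 without those 2 or those 3 arrays, 0.11 centred within sides and 0.12 with loess within sides. Probe sets called numbered 34 as deposited and 17 centred within sides. For Xrn1 in induced cells (21 and 0.09), the count was 6 with the median of probe sets, 0 with own spread (37 genes had unadjusted p under 0.05 in limma with the prior), 13 with only the groups compared and 7 without the 3 arrays, and the median was 0.36 with the filter and -0.12 centred within sides. For induction without Xrn1 (2 and -0.15), the count was 4 with a trended prior, 1 when centred on the median gene or with only the groups compared, and 0 with the median of probe sets, the filter, at least 3 probe sets, cyclic loess, own spread, either set of arrays left out and both settings within sides. Its median was 0.024 centred on the median gene, 0.042 with loess, 0.028 without 2 arrays, 0.081 without 3, 0.11 centred within sides and 0.062 with loess within sides. For induction with Xrn1 (0 and 0.07; 26 with unadjusted p under 0.05), the count was 15 with only the groups compared and the median was -0.12 centred within sides. For the difference of the Xrn1 changes (39 and 0.26), the count was 10 with the median of probe sets, 16 with the filter, 11 with cyclic loess, and 0 with own spread, with either set of arrays left out and in both settings within sides (22 genes with limma unadjusted p under 0.05 in either of these). Its median was 0.0032 centred on the median gene, 0.051 with loess, -0.031 without 2 arrays, -0.047 without 3, -0.23 centred within sides and -0.11 with loess within sides.

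Leaving out 1 array at a time gave 17 to 54 genes and medians of -0.24 to 0.085 for Xrn1 in uninduced cells, 3 to 34 and 0.07 to 0.13 for Xrn1 in induced cells, 0 to 50 and -0.31 to 0.028 for induction without Xrn1, 0 to 1 and -0.03 to 0.20 for induction with Xrn1, and 2 to 69 and 0.038 to 0.46 for the difference. In uninduced cells the count was 18 without untreated replicate 2, 17 without Xrn1 replicate 2 and 19 without Xrn1 replicate 3. In induced cells it was 10, 3 and 6 without Xrn1 replicates 1, 2 and 3, and 12, 3 and 34 without untreated replicates 1, 2 and 3. For the difference it was 2 without uninduced Xrn1 replicate 2, 7 without induced untreated replicate 1 and 69 without induced untreated replicate 3. All these counts stand without the shares of all genes in the same fits and show only dependence on single arrays.

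The labels give each Xrn1 array the sample number of an untreated array, and whether such arrays share a sample could not be decided. Deviations correlated above 0.1 in 6 of 18 pairs of arrays with the same replicate number. For the same sample number it was 1 of the 6 pairs. The step shifted some arrays with the same number in opposite directions, so low correlations do not exclude a shared sample. With the sample pairs as a replicate block the counts were 23 in uninduced cells, 6 in induced cells and 7 for the difference, and with replicate number as a block induction without Xrn1 had 1. Of the 26 changes, 2 kept their calls under every alternative that included them, OR2J3 and OR4N4 in uninduced cells. OR2J3 has 2 probe sets, so it was not in the fit of genes with at least 3, and their median equals their mean. Its dimmer probe set changed by 0.59 in uninduced cells and was not called, so the call of OR2J3 rests largely on 1 bright probe set. With each gene's own spread and no prior, 5 of the 26 stayed the same and 21 were weaker. With 1 array left out, all of the 8 changes named for Xrn1 in induced cells lost their call for at least 1 array. The cause of the other shifts was not tested, and dim signals near background limit what these genes can show.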
